A study of Mus musculus with 4 samples.

Results

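Among 2133 windows of 1 Mb on mouse chromosomes 1 to 19 that held a CTCF peak, 66 carried an almost one-sided set of unshared peaks. In these windows the peaks listed in only 1 of 2 cell types came almost wholly from splenic B cells rather than splenic plasmablasts. Windows were laid from position 0 and peaks were placed by their midpoint. A peak was unshared when no peak of the other list overlapped it by 1 bp. The members are all peaks of windows with 10 or more unshared peaks of which 90% or more were B cell only. These are 3689 peaks (2258 in B cells and 1431 in plasmablasts) of 67467 in both lists. The members were chosen by the overlap of the lists, so their counts of shared and unshared peaks are a description and carry no test.

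CTCF is a zinc finger protein that binds a long DNA motif, halts cohesin as it extrudes chromatin loops, and so marks the anchors of loops and the borders of domains. Most of its strong sites are bound in many cell types, and differences between cell types are known to lie mainly among weaker sites. Plasmablasts arise from activated B cells, still divide and already secrete antibody. On this path the B cell transcription programme is shut down and a secretory programme led by Xbp1 and Prdm1 is switched on.

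The cells came from C57BL/6 mice aged 6 weeks, and CTCF binding was read out by chromatin immunoprecipitation and sequencing. B cells were the CD43- fraction of spleens. Plasmablasts were sorted as CD138+ spleen cells 3 days after a retro-orbital dose of 50 µg lipopolysaccharide (LPS), a bacterial product that activates B cells. For either cell type 1 CTCF library and 1 input library were made, and the peak list of each CTCF library was analysed (36381 peaks of 305 bp in B cells, and 31086 peaks in plasmablasts, all but 1 of 179 bp). The inputs were not analysed here. The labels do not say how many mice each library held. With 1 library per cell type there is no spread between replicates, so the cell types were not tested against each other. The B cell libraries were run on a Genome Analyzer II and the plasmablast libraries on a HiSeq 2000, so cell type and instrument cannot be told apart. The LPS injection and the cell type cannot be told apart either. Depth is unknown, since the deposited score has no stated unit, and a site left off a list may still be bound in those cells. Positions are on mouse build mm9, counted from 1.

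The 66 windows were 8.54% of the 773 windows with enough unshared peaks. They held 1368 shared sites, 890 peaks listed only for B cells and 63 listed only for plasmablasts. The B cell share of the unshared peaks was 93.4% (exact 95% binomial interval 91.6 to 94.9%), against 65.5% over all of chromosomes 1 to 19. Seen from each list, 39.4% of the B cell peaks in these windows were unshared (37.4 to 41.5%), where the list's background is 32.2%. Of the plasmablast peaks 4.40% were unshared (3.40 to 5.60%), where the background is 20.0%. These intervals cover counting error only, and the shares follow from the rule. The windows held 7.74% of all B cell only peaks of the 19 autosomes, 5.66% of the shared ones and 1.04% of the plasmablast only ones.

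A rule on the share can be met by more B cell only peaks or by fewer plasmablast only peaks, and the counts that follow describe the windows it took. They held a median of 12 B cell only peaks (9 to 23), against 10 in the 707 other windows tested (2 to 31). The median of plasmablast only peaks was 1 (0 to 2), against 5 (2 to 14). The number of unshared peaks in all was much the same, with medians of 13 and 14. So was the number of shared sites, with a median of 18.5 (5 to 47) in the 66 windows and 19 (2 to 66) in the others. Of the 66, 12 windows had no plasmablast only peak, 45 had 1 and 9 had 2.

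**Figure D1:**
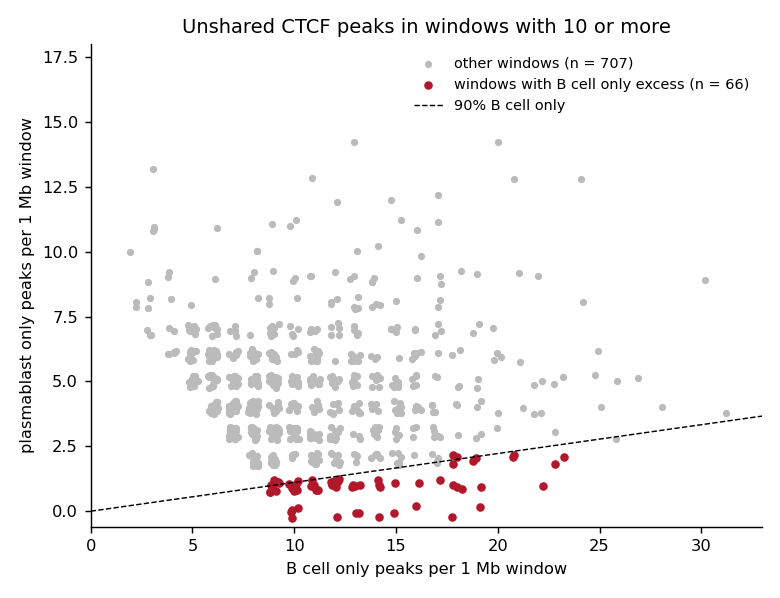
Each point is a 1 Mb window with 10 or more unshared CTCF peaks, placed by its number of B cell only peaks (horizontal) and plasmablast only peaks (vertical), with a small random shift so that equal counts can be seen. The 66 windows with B cell only excess (red) hold 0 to 2 plasmablast only peaks and 9 to 23 B cell only peaks, and the dashed line marks a share of 90%.

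The edge of the rule ran through a crowded part of this distribution. At exactly 90% stood 12 of the 66 windows, and 13 had exactly 10 unshared peaks. The next windows inside were on chromosome 2 from 31000001 to 32000000 and on chromosome 9 from 115000001 to 116000000, each with 19 unshared peaks from B cells and 2 from plasmablasts. Just outside lay the window on chromosome 8 from 129000001 to 130000000, with 26 and 3 (89.7%), followed by 4 windows with 17 and 2 (89.5%) on chromosomes 1, 2 and 11. Of these, 2 were on chromosome 11, from 78000001 to 79000000 and from 114000001 to 115000000. A further 4 windows had 9 unshared peaks, all from B cells, and fell short on number alone.

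By position, with the number of B cell only peaks and then that of plasmablast only peaks in brackets, chromosome 5 had the most windows. Its 8 windows began at 3000001 (9 and 1), 35000001 (12 and 1), 112000001 (18 and 1), 116000001 (18 and 0), 118000001 (13 and 1), 129000001 (19 and 0), 140000001 (18 and 2) and 145000001 (18 and 2). Chromosome 2 followed with 7, at 6000001 (13 and 0), 25000001 (14 and 1), 27000001 (15 and 0), 31000001 (19 and 2), 32000001 (19 and 1), 156000001 (21 and 2) and 157000001 (9 and 1). The 5 windows of chromosome 7 began at 26000001 (18 and 2), 71000001 (13 and 0), 86000001 (10 and 0), 106000001 (10 and 0) and 125000001 (12 and 1), so 3 of them had no plasmablast only peak.

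Chromosomes 4, 9, 12, 15, 16 and 17 had 4 windows each. Those of chromosome 4 began at 47000001 (10 and 1), 117000001 (9 and 1), 141000001 (13 and 1) and 150000001 (12 and 1). On chromosome 9 they began at 13000001 (12 and 1), 61000001 (12 and 1), 63000001 (23 and 2) and 115000001 (19 and 2). Chromosome 12 had 71000001 (11 and 1), 77000001 (15 and 1), 110000001 (11 and 1) and 111000001 (9 and 1), the last pair adjoining. Chromosome 15 had 12000001 (9 and 1), 66000001 (12 and 1), 77000001 (14 and 0) and 79000001 (21 and 2). On chromosome 16 the starts were 10000001 (14 and 1), 30000001 (23 and 2), 90000001 (11 and 1) and 92000001 (10 and 1). On chromosome 17 they were 25000001 (22 and 1), 46000001 (14 and 1), 57000001 (16 and 1) and 86000001 (10 and 1).

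The other chromosomes had 3 windows or fewer. Chromosome 6 had 54000001 (12 and 1), 87000001 (18 and 1) and 115000001 (10 and 1), and chromosome 8 had 23000001 (13 and 1), 114000001 (12 and 1) and 123000001 (13 and 1). Chromosome 10 had 41000001 (11 and 1), 84000001 (11 and 1) and 92000001 (9 and 1), and chromosome 11 had 5000001 (9 and 1), 24000001 (10 and 1) and 82000001 (11 and 1). Chromosome 19, the shortest autosome, had 10000001 (18 and 1), 41000001 (17 and 1) and 46000001 (12 and 0). Chromosome 1 had 129000001 (9 and 1) and 195000001 (10 and 1), chromosome 3 had 102000001 (9 and 1) and 153000001 (10 and 1), and chromosome 13 had 56000001 (10 and 0) and 67000001 (10 and 0). Chromosome 14 had the single window at 26000001 (16 and 0). As a share of the windows tested, the chromosomes ran from 13.3% on chromosomes 12 and 16 (4 of 30 each) to 3.23% on chromosome 14 (1 of 31) and 0 of 19 on chromosome 18, where a count of 0 allows a share of up to 15.8% (3 of 19).

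The B cell only peaks of these windows were mostly weak. Strength is given as the score percentile, the rank of a peak's score among all peaks of its own list, with 100 for the strongest. The 890 peaks had a median percentile of 21.1 (interval 19.8 to 22.4; quartiles 10.3 and 35.2) and a median score of 25. The 10610 B cell only peaks elsewhere on the autosomes had a median percentile of 19.8 (19.8 to 21.1), so the strengths of both sets nearly coincided. Of the 890 peaks, 60.2% lay in the lowest quartile of the B cell list (56.9 to 63.5%) and 10.0% above its median (8.11 to 12.2%), against 60.2% and 9.47% elsewhere. The score itself did not enter the rule, but weak peaks are less often shared, so score and sharing are linked.

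The unshared share by strength is given for each quartile of the B cell list by score. The rule raises it in these windows, so nothing is read from the comparison. In the lowest quartile 536 of 636 peaks were unshared (84.3%), against 79.4% in the 707 other windows tested. For the same sets of windows the shares were 51.4% and 44.7% in the second quartile and 15.2% and 12.9% in the third. In the highest they were 1.40% (8 of 573) and 0.864%. In the plasmablast list the lowest quartile had 34 unshared of 316 peaks (10.8%) in the 66 windows, where all autosomes had 37.7%. In its highest quartile 3 of 382 were unshared (0.785%), where all autosomes had 6.12%.

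**Figure D2:**
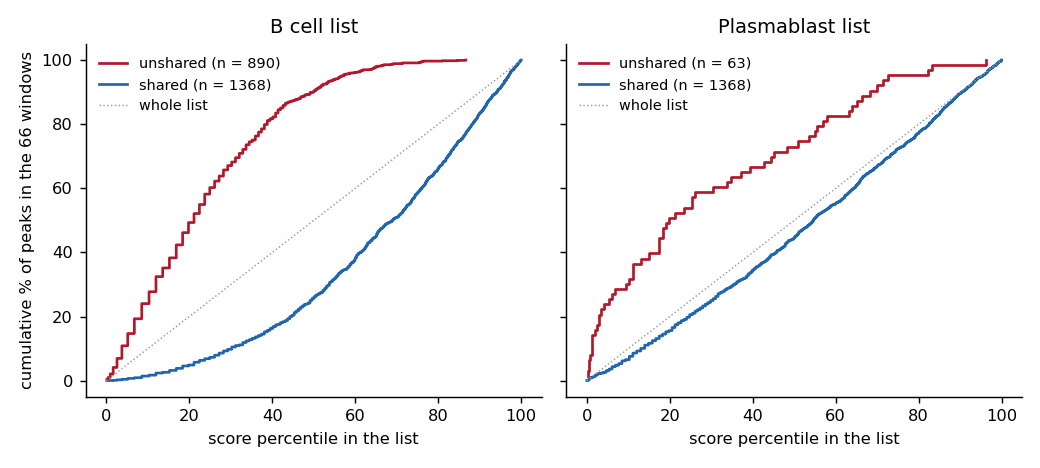
Cumulative percentage (vertical) of the CTCF peaks in the 66 windows by score percentile in their own list (horizontal), for the B cell list (left) and the plasmablast list (right). Unshared peaks (red) lie above the dotted line of the whole list, with median percentiles of 21.1 and 19.8, and shared peaks (blue) lie below it in B cells (median 68.9) and slightly below it in plasmablasts (54.7).

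Strong B cell only peaks were rare, as they were elsewhere. Only 8 of the 890 (0.899%), in 7 windows, passed the 75th percentile of their list, against 0.622% elsewhere. None passed the 90th, against 0.113% elsewhere (12 of 10610). The strongest, on chromosome 17 at 25173166 to 25173470, scored 198.2 (86.6th percentile). The nearest plasmablast midpoint lay 19307 bp away and belonged to a weak peak (score 9.1, 22.8th percentile). The next was on chromosome 15 at 79501059 to 79501363 (score 188.0, 84.7th percentile), 8722 bp from a plasmablast peak. The third was on chromosome 5 at 35375782 to 35376086 (170.4, 81.0th percentile), 8082 bp away. On chromosome 4 the peak at 47364343 to 47364647 (147.3, 76.0th percentile) lay 48422 bp from any plasmablast midpoint, and on chromosome 5 that at 145995565 to 145995869 (145.4, 75.6th percentile) lay 115257 bp away.

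The strongest B cell only peak of a window had a median percentile of 56.3, with scores from 32.4 to 198.2. In 19 of the 66 windows no B cell only peak reached the upper part of the list above its median. The window on chromosome 5 from 118000001 to 119000000 was the extreme, with 13 B cell only peaks scoring 13.9 to 32.4, all at or below the 30.2nd percentile. On chromosome 17 the window from 25000001 to 26000000 was the other extreme, with 8 of its 22 B cell only peaks above the median. The window with the highest median percentile of B cell only peaks (40.4) was on chromosome 13 from 56000001 to 57000000. That with the lowest (6.77) was on chromosome 5 from 112000001 to 113000000.

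Most B cell only peaks stood clear of any plasmablast peak. Their midpoints lay a median of 15.1 kb from the nearest plasmablast midpoint (quartiles 7.58 and 30.7 kb), against 13.6 kb for B cell only peaks elsewhere. In 4 of the 890 (0.449%) a plasmablast midpoint lay within 500 bp, against 2.65% elsewhere. Such a plasmablast peak can be unshared itself, and the rule sets a limit on those. The part of this in the difference was not tested. At the other end, 29 of the 890 peaks (3.26%) were more than 100 kb from a plasmablast midpoint, against 5.54% elsewhere. The farthest of the 890 was 234.8 kb away. The peaks elsewhere include those of windows with too few unshared peaks for the rule. How far peak density enters these distances was not tested.

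B cell only peaks were spread over each window rather than gathered at a single place. They spanned a median of 851 kb of the 1 Mb (441 to 992 kb) and occupied a median of 7 of its 10 bins of 100 kb (4 to 10). In the 707 other windows tested these medians were 777 kb (72 to 993 kb) and 6 bins (2 to 10). Such a spread was thus common to the windows tested. Shared sites lay between the B cell only peaks. The longest series of successive B cell only peaks with no shared or plasmablast only peak in between held a median of 3 peaks. The median was also 3 in the 707 others (1 to 9). In the members the longest series held 6 peaks in 6 windows and 7 in 2 windows. The densest series of 7 was on chromosome 14 from 26341829 to 26380655, a stretch of 38.8 kb with scores of 15.7 to 56.5. The other was on chromosome 2 from 6177206 to 6284526, a stretch of 107 kb with scores of 13 to 51.9. In both series the strongest peak stayed below the median of the B cell list.

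Shared sites were compared between the cell types by rank. The lists differ in length and in how many weak unshared peaks they hold, and this alone gives shared sites higher percentiles in the B cell list. Elsewhere on the autosomes their medians were 65.7 in the B cell list (65.1 to 66) and 56.6 in the plasmablast list (56.1 to 57.1). In the 66 windows the medians were 68.9 (66 to 71.5) and 54.7 (52.4 to 56.9). Site by site, the B cell percentile minus the plasmablast percentile had a median of 10.5 points there (9.30 to 11.6) and 7.13 points elsewhere (6.82 to 7.46), and the second value is the offset to read the first against.

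To remove this offset the shared sites were also ranked among themselves alone, which gives rankings of equal length (a step added after the data were seen). On this scale the median difference was 3.76 points in favour of B cells in the 66 windows (2.63 to 4.87), against 0.263 elsewhere (0.00827 to 0.490). Of the 1368 sites 812 ranked higher in B cells (59.4%, 56.7 to 62%), against 50.7% elsewhere (50 to 51.3%). Sites ranking over 20 points higher in B cells were 21% in the 66 windows (18.8 to 23.2%) and 16.6% elsewhere (16.1 to 17%). Sites ranking over 20 points higher in plasmablasts were 11.5% (9.90 to 13.4%) and 16.1% (15.6 to 16.6%). These ranks did not enter the rule, but they come from the same 2 libraries, and sites near each other are not independent, so the intervals are too narrow. By window, the shared sites had the higher median rank in B cells in 43 of 66 windows (65.2%) and in 365 of the 707 other windows tested (51.6%). The median gap per window was 5.38 points (−28.3 to 33.5) and 0.383 points (−64.6 to 41.6), so the ranges overlapped widely.

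**Figure D3:**
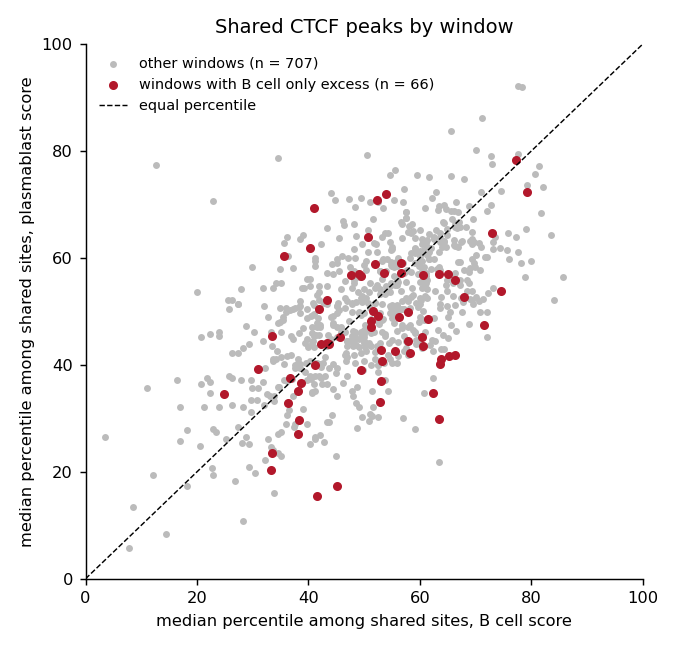
Each point is a 1 Mb window, placed by the median percentile of its shared CTCF sites, ranked among all shared sites of chromosomes 1 to 19 by B cell score (horizontal) and by plasmablast score (vertical). Of the 66 windows with B cell only excess (red), 43 lie below the dashed line of equal percentiles, as do 365 of the 707 other windows (grey), and both clouds overlap.

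Percentiles of single sites and windows from here on are again of the whole lists, with the offset given above. The widest gap of medians on that scale was in the window on chromosome 5 from 129000001 to 130000000, which also had the most B cell only peaks of the 12 windows without a plasmablast only peak. On the mm9 map this chromosome 5 window carries the neighbours Ran, which encodes the GTPase of nuclear transport, and Stx2, a syntaxin of membrane fusion. Its 10 shared sites had a median percentile of 61.6 in B cells and 22.7 in plasmablasts. The strongest, at 129683780 to 129684084, was strong in both lists (scores 278.8 and 42.7, 98.0th and 80.2nd percentiles). At 129567471 to 129567775 the B cell score of 160.2 stood at the 78.9th percentile and the plasmablast score of 8.0 at the 18.3rd. The next site, at 129569193 to 129569497, ranked alike in both (176.9 and 49.0, 82.4th and 85.5th percentiles). The 19 B cell only peaks scored 12 to 64.8, and 6 of them followed each other from 129512293 to 129565329.

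A gap nearly as wide lay on chromosome 11 from 24000001 to 25000000, a thinly filled window with 6 shared sites. There the medians were 59.3 in B cells and 20.5 in plasmablasts. At 24157763 to 24158067 a B cell score of 207.5 (88.3rd percentile) met a plasmablast score of 6.6 (11.1st percentile), the widest difference of its window.

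**Figure D4:**
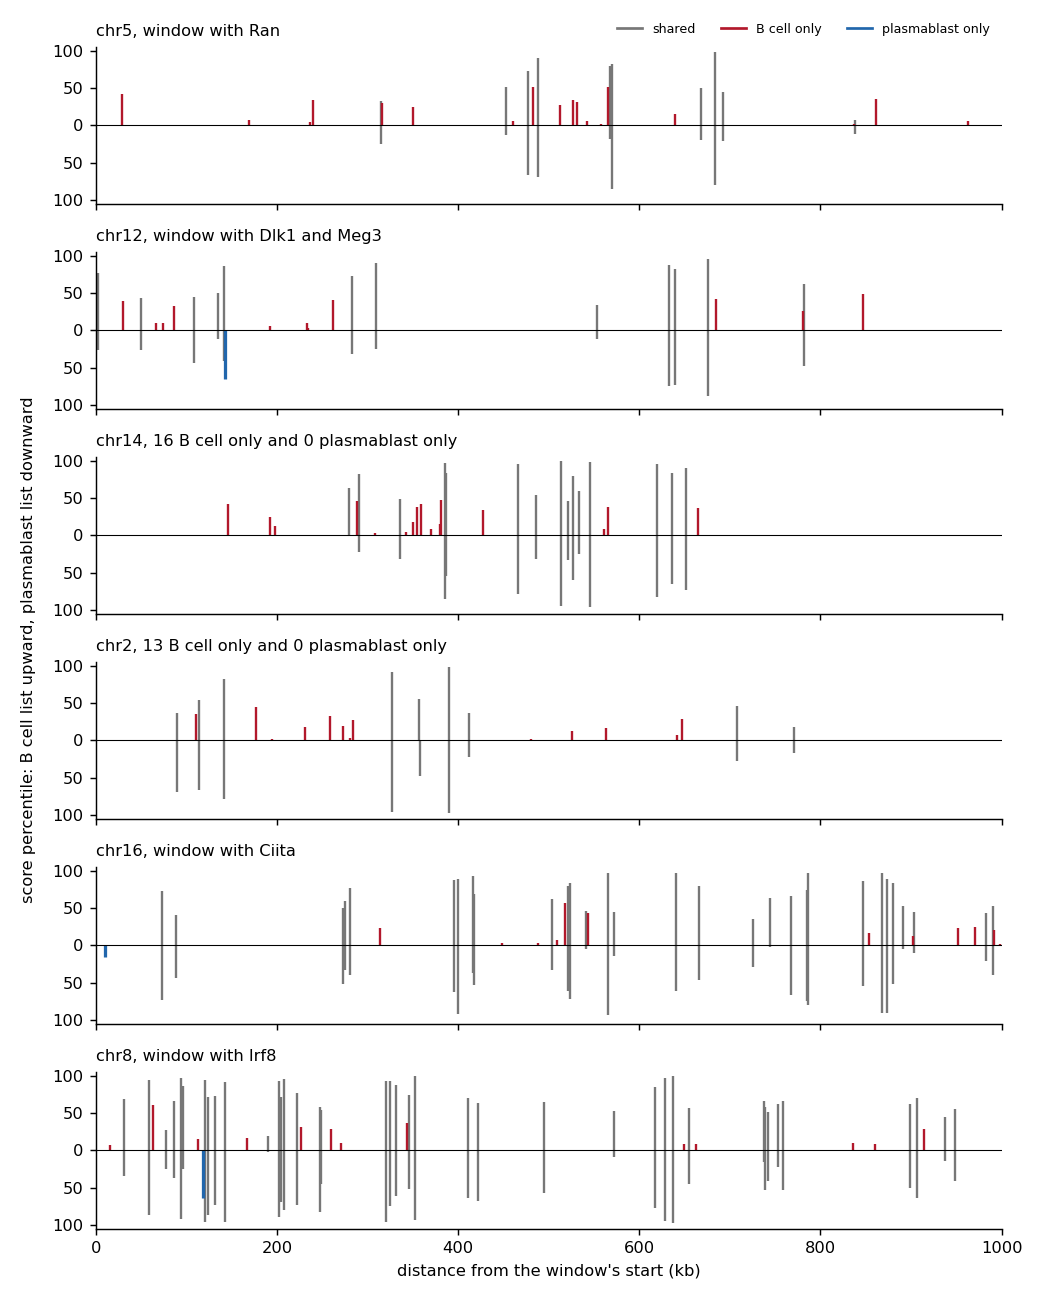
CTCF peaks of 6 windows by distance from the window's start in kb (horizontal), with bars upward for the score percentile in the B cell list and downward for that in the plasmablast list. Grey bars are shared sites, red bars B cell only peaks and blue bars plasmablast only peaks. The red bars, shorter than the tallest grey ones, stand among them, and the window with Ran has short downward bars (median 22.7).

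The 63 plasmablast only peaks that remained had a median percentile of 19.8 in their list (13 to 34.7), with scores of 2.7 to 68.4. Plasmablast only peaks elsewhere stood at 27.3 (26.7 to 28.0), inside that wide interval. Of the 63, 17 lay above the median of the plasmablast list (26.98%, 16.6 to 39.7%), against 24.97% elsewhere. Above its 75th percentile lay 3 (4.76%, 0.993 to 13.3%), against 7.82% elsewhere. The strongest was on chromosome 3 at 153622472 to 153622650 (score 68.4, 96.1st percentile), with a B cell midpoint 2592 bp away. The others were on chromosome 4 at 47432543 to 47432721 (46.1, 83.2nd percentile), 348 bp from a B cell midpoint, and on chromosome 2 at 32613176 to 32613354 (44.9, 82.1st percentile), 611 bp from one with a score of 272.3. In 6 of the 63 a B cell midpoint lay within 500 bp (9.52%, 3.58 to 19.6%), against 6.55% elsewhere. In 41 of the 63 it lay within 10 kb (65.1%, 52.0 to 76.7%), against 49.0% elsewhere. The peaks elsewhere include those of sparser windows, with too few unshared peaks for the rule. The part of peak density in these differences was not tested. The most isolated of the 63, on chromosome 12 at 111388219 to 111388397 (score 3.9, 1.31st percentile), lay 118556 bp from any B cell midpoint.

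Most windows held shared sites that were strong in B cells. The strongest shared site of each window, by B cell score, had a median B cell percentile of 97.1 (74.5 to 99.98) and stood above the 90th in 59 of the 66 windows. Its plasmablast percentile had a median of 91.9, but went down to 11.1 in the chromosome 11 window described above, where all 6 shared sites lay below the median of the plasmablast list. The strongest of all, on chromosome 11 at 5014964 to 5015268, scored 417.7 and 91.3 (99.98th and 99.4th percentiles).

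Genes can be tied to these windows only as background. No mm9 annotation was used here, so the genes named below are placed by general knowledge of the mm9 map, with no position of a peak relative to a gene. They were picked from the windows after these were known, and nothing is claimed for their kinds. All 52 symbols named for 29 windows were on the stated chromosome in a RefSeq gene table, which is on another build (GRCm38) and was not used for positions.

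Several windows carry genes central to B cells and their change into plasmablasts. On chromosome 16 from 10000001 to 11000000 lies Ciita, the master activator of MHC class II genes, which is silenced in plasma cells, beside Socs1, an inhibitor of cytokine signalling. This window had 30 shared sites, 14 unshared peaks from B cells and 1 from plasmablasts. The strongest shared site, at 10868045 to 10868349, scored 274.2 and 55.4 (97.6th and 90.1st percentiles). The strongest B cell only peak, at 10518156 to 10518460, scored 76.9 (56.3rd percentile). The next peaks, starting at 10521322 and 10522957, were shared and strong in B cells (165.8 and 186.2). Some shared sites of this window ranked far apart: at 10744392 to 10744696 a B cell score of 100 (64.1st percentile) met a plasmablast score of 4.5 (2.51st percentile), and at 10416142 to 10416446 the scores were 239.0 and 13.4 (93.5th and 36.7th percentiles).

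Xbp1, the transcription factor of the secretory programme, lies on chromosome 11 from 5000001 to 6000000. Its window had 29 shared sites, 9 B cell only peaks and 1 plasmablast only peak, and so lay at the edge of the rule. Shared sites ranked higher in plasmablasts at some places, as at 5190719 to 5191023 (scores 135.2 and 69.3, 73.2nd and 96.4th percentiles). They ranked higher in B cells at others, as at 5926432 to 5926736 (180.6 and 14.6, 83.1st and 39.9th percentiles). The strongest B cell only peak, at 5442196 to 5442500, scored 92.6 (61.9th percentile).

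The window on chromosome 8 from 123000001 to 124000000 carries Irf8, a transcription factor of B and myeloid cells, and the forkhead genes Foxf1, Foxc2 and Foxl1. It was rich in shared sites (39), with medians of 70.5 in B cells and 63.2 in plasmablasts, but single sites differed by −24.3 to 62 points between the lists. Its strongest shared site, at 123637202 to 123637506, scored 329.7 and 73.5 (99.5th and 97.5th percentiles). Its 13 B cell only peaks scored 16.7 to 89.8, and the single plasmablast only peak, at 123118631 to 123118809, scored 27.9 (63.2nd percentile).

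Chromosome 19 carried 3 such windows. That from 46000001 to 47000000 holds Nfkb2, which encodes a subunit of the NF-kappa-B family, and Pitx3, a homeobox gene of lens and dopamine neurons. It had 41 shared sites, 12 B cell only peaks scoring 16.7 to 83.4 and no plasmablast only peak. The window from 10000001 to 11000000 holds Cd5 and Cd6, scavenger receptors of lymphocytes, and the fatty acid desaturases Fads1 and Fads2. It had 37 shared sites, 18 unshared peaks from B cells and 1 from plasmablasts, and its strongest B cell only peak, at 10651791 to 10652095, scored 144.5 (75.4th percentile). The window from 41000001 to 42000000 holds Pik3ap1, an adaptor of the B cell receptor. Its 28 shared sites ranked higher in plasmablasts (medians of 66.3 in B cells and 69.3 in plasmablasts), and its 17 B cell only peaks scored 13 to 59.3.

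Chromosome 17 from 57000001 to 58000000 carries complement C3, the TNF family ligands Cd70, Tnfsf9 and Tnfsf14, and Vav1, an exchange factor of antigen receptor signalling. It had 16 shared and 16 B cell only peaks and 1 plasmablast only peak. Its shared sites had the highest median percentile of all 66 windows in B cells (86.1), and 76.9 in plasmablasts. The window on chromosome 16 from 92000001 to 93000000 carries Runx1, a regulator of blood cell formation. Its 10 B cell only peaks were weak, with scores of 20.4 to 41.7, among 23 shared sites. On chromosome 15 from 79000001 to 80000000, with Apobec3, a cytidine deaminase that restricts retroviruses, and Pdgfb, a growth factor, there were 38 shared sites, 21 B cell only and 2 plasmablast only peaks. This window held the second strongest B cell only peak of all.

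Imprinted genes, which are expressed from 1 parental copy, were named for 3 of the windows, which is not a full count either. The adjoining windows on chromosome 12 from 110000001 to 112000000 carry the Dlk1 and Meg3 cluster and, farther on, Dio3, and held 27 shared sites, 20 unshared peaks from B cells and 2 from plasmablasts. In the first of them the 12 shared sites had medians of 75.3 in B cells and 36.6 in plasmablasts. At 110309455 to 110309759 the scores were 218.6 and 9.8 (90.3rd and 25.5th percentiles). The highest scoring shared site there, at 110675952 to 110676256, was strong in both (255.6 and 53.1, 95.8th and 88.7th percentiles). In the second, the 15 shared sites stood at 56.6 and 42.0. The window on chromosome 2 from 157000001 to 158000000 carries the imprinted Nnat and the kinase gene Src, with 22 shared sites, 9 unshared peaks from B cells and 1 from plasmablasts. A weak B cell site at 157397295 to 157397599 (46.3, 41.4th percentile) ranked high in plasmablasts (50.7, 87.0th percentile).

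Genes of TGF-beta signalling were named for 4 windows. This is not a full count, since no annotation was used, and no share over other windows was determined. Tgfb1, the ligand, shares the window on chromosome 7 from 26000001 to 27000000 with the receptor kinase gene Axl. It had 28 shared sites, 18 unshared peaks from B cells and 2 from plasmablasts. The strongest shared site there by B cell score, at 26432774 to 26433078, scored 251.0 in B cells (95.2nd percentile) and 12.1 in plasmablasts (33.2nd percentile). Tgfbr1, a receptor, lies on chromosome 4 from 47000001 to 48000000, where 12 shared sites had medians of 84.8 and 82.2. Smad3, a signal transducer, and Smad6, an inhibitor, share the window on chromosome 9 from 63000001 to 64000000. Its 23 B cell only peaks were the joint highest number of the 66 windows, none above the median of the list (scores 12 to 53.7), and its shared sites ranked higher in plasmablasts (58.3 and 67.4). Smad5, another transducer, lies with Il9 and Tgfbi on chromosome 13 from 56000001 to 57000000, with 23 shared, 10 B cell only and no plasmablast only peaks, and shared medians of 56.6 and 33.7.

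The other windows with genes named held Abl1 (chromosome 2 from 31000001), Nras (chromosome 3 from 102000001), Tnfrsf9 (chromosome 4 from 150000001), Cdk6 (chromosome 5 from 3000001), Nos1 (chromosome 5 from 118000001), Pparg (chromosome 6 from 115000001), Acan and Polg (chromosome 7 from 86000001), and Foxo3 and Sesn1 (chromosome 10 from 41000001). Rsl1, of a cluster of zinc finger repressor genes, lies on chromosome 13 from 67000001, Tg and Ndrg1 on chromosome 15 from 66000001, Myh9 on chromosome 15 from 77000001, and Vegfa on chromosome 17 from 46000001. Across these 12 windows the B cell only peaks numbered 9 to 19 and the plasmablast only peaks 0 to 2. The zinc finger window on chromosome 13 had the fewest shared sites of all 66 windows (5), beside its 10 B cell only peaks. The window on chromosome 2 with Abl1, the tyrosine kinase gene, had 37 shared sites with medians of 77.4 in B cells and 48.6 in plasmablasts.

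The windows were chosen for their share, so their 93.4% stands above unselected neighbours by the rule, and nothing is read from that step. The 116 windows next to a member had 997 B cell only and 409 plasmablast only peaks, a share of 70.9% (68.5 to 73.3%). Over the 707 other windows tested, the share was 68.3% (67.5 to 69.2%), and over all windows outside the 66 it was 63.9% (63.2 to 64.7%). Neighbours held a median of 17 shared sites, against 8 over all windows outside the 66, and the part of this density in the share was not tested. Of the neighbours, 72 had enough unshared peaks, and their share ran from 46.2% to 88.9% with a median of 72.9%, against 69.2% for all 707. The share was 72.2% and 73.7% at 2 Mb on either side, no lower than next to the members, and 65.4 to 67.9% at 3 to 5 Mb. Adjoining members were few: 6 of the 66 windows, in the pairs on chromosome 2 from 31000001 to 33000000 and from 156000001 to 158000000 and on chromosome 12 from 110000001 to 112000000.

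**Figure D5:**
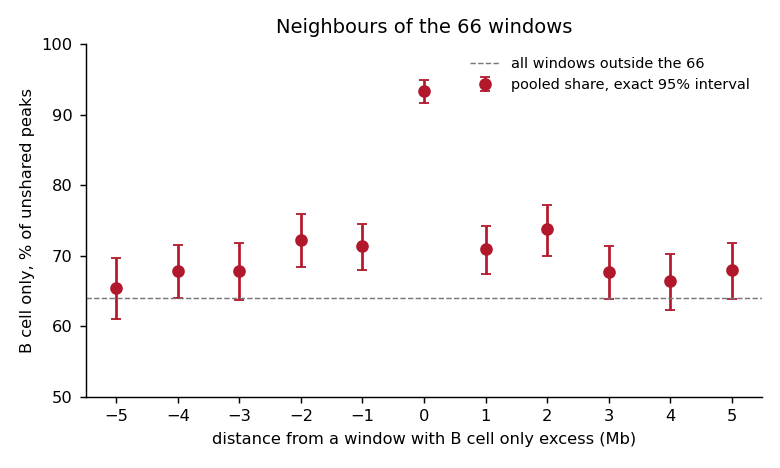
B cell only peaks as a percentage of all unshared peaks (vertical, from 50%), pooled over the windows at each distance in Mb from the 66 windows (horizontal), with exact 95% binomial intervals. The 66 windows themselves, chosen for this share, stand at 93.4%, their neighbours at 71.3% and 70.9%, and the dashed line at 63.9% is the share over all windows outside the 66.

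Which windows met the rule depended on how deep each list was read. Overlap was found again among the peaks kept, so a shared site became unshared when only 1 of its peaks was dropped. When only the peaks above the median score of each list were kept, 52 of 205 windows with enough unshared peaks met it (25.4%), and 10 of these were among the 66. When the B cell list was shortened to the length of the plasmablast list by score, 16 of 541 did (2.96%), all 16 among the 66. The window with Nfkb2 and Pitx3 on chromosome 19 was the only 1 of the 66 that met the rule under both of these and under both other definitions of overlap. The windows with Ran, with Pik3ap1, with Cd5 and Cd6, and with C3 and Vav1 met it in the shortened list but not above the medians. Those with Ciita, with Irf8 and with Tgfb1 met it above the medians but not in the shortened list. In the whole lists, the windows with Ciita, Irf8, Tgfb1 and Nfkb2 had only 1, 1, 4 and 3 B cell only peaks above the median. Any further B cell only peaks counted there above the medians were shared sites whose plasmablast peak was dropped.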

How the data were processed

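CTCF and input libraries were made from each cell type (1 each); only the 2 CTCF peak lists were analysed. The submitters' processing notes name Bowtie (an aligner), HOMER (a toolkit that calls peaks) and build mm9. Not given in the sources used here were versions, thresholds and whether the input served as control. The score deposited by the authors has no stated unit, so it was used only to rank peaks within a list (ties averaged). Differences in instrument, depth and peak width (305 and 179 bp) can change which weak peaks are listed and overlap.

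Starts were read as BED and raised by 1. Overlaps of at least 1 bp were checked with bedtools 2.31.1, and the window rule was tested on simulated data. Shares have Clopper-Pearson intervals, medians exact binomial order statistic intervals (95%), over peaks. In each window the rule named the strongest B cell only peak, the strongest shared peak and the plasmablast only peaks; those that matter are given, and other peaks and the genes were chosen after their values were seen. The members and lists were chosen with earlier results of these data known. No sequence is printed, since no mm9 genome was used here. Shared sites were also ranked among themselves. Alternatives were the overlap rule, the list thresholds, the grid and both limits of the rule. Python 3.11.15, numpy 2.4.6, pandas 2.3.3, scipy 1.17.1 and matplotlib 3.10.9 were used. A few background gene names are not reported here.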

Additional observations from a re-analysis of the deposited data

How the results depend on the processing

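Of 44 values under alternatives, 28 stayed within 1.5 times the count or within the interval of the median or share, and 16 moved. Ranking shared sites among themselves, a choice made after seeing the data, took the median difference in favour of B cells to 3.76 points and the share of sites ranking higher there to 59.4%; the whole lists favour B cells by construction. With 80% in place of 90% as the lowest share, 202 windows with 2831 B cell only peaks met the rule, at a share of 86.6%. With 15 in place of 10 unshared peaks, 24 windows with 433 B cell only peaks did, and the median B cell percentile of shared peaks was 71.7. The shortened B cell list gave 16 windows with 175 B cell only peaks, at median percentiles of 32.1 for these and 72.1 for shared peaks in B cells. Above the medians, a site shared in the whole lists counted as B cell only when its plasmablast peak was dropped. The 593 B cell only peaks there can thus include such sites. The medians were 64.4 for these peaks, 85.9 for shared peaks in B cells and 79 in plasmablasts. These medians are higher by construction, since percentiles were kept from the whole lists. With 50% reciprocal overlap 48 windows met the rule (47 of the 66), with midpoints within 500 bp 77 (64 of the 66), and with the grid shifted by 500 kb 57. No paired analysis was possible because each cell type has 1 library, and leaving out a replicate was not possible either. The deposited lists give no depth, so it cannot be said which weak peaks a deeper library would add.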
